A study of Homo sapiens with 6 samples.

Results

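The genes described here form the ABC transporter family, named for the ATP-binding cassette that its proteins share. Members were the protein-coding genes whose symbols consist of ABC, a subfamily letter from A to G and a number. There were 45 members among the 58884 genes of the count tables, of which 19869 were protein-coding. Subfamily A held 12 members, B 9, C 11, D 4, E 1, F 3 and G 5. HSC-4 is an established human oral squamous cell carcinoma line, and DAPT blocks γ-secretase, the protease that frees the intracellular domain of Notch receptors. RNA was sequenced from 3 libraries of HSC-4 cells given 50 µM DAPT for 24 h and from 3 libraries labelled control. The study's methods describe a DMSO vehicle for the controls, whereas the deposited design text speaks only of growth medium, so an effect of the vehicle cannot be told apart from that of DAPT if the controls lacked it. Nothing in the labels says whether the replicates were separate cultures, so p-values measure only the spread between these libraries, and all libraries came from a single cell line.

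ABC transporters of subfamilies A, B, C, D and G use ATP to move lipids, sterols, bile salts, haem, peptides, conjugates or drugs across membranes. Proteins of subfamilies E and F carry the same ATP-binding cassettes without a membrane part and act on ribosomes instead. In tumour cells the family is best known for drug efflux by *ABCB1*, *ABCC1* and *ABCG2*, and in the epidermis *ABCA12* loads lipids into the lamellar granules that build the skin barrier.

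Control replicate 1 stood apart from the other 5 libraries in fibroblast markers. All 5 fibroblast markers examined were highest in it, and their summed level was 181.4 TPM (transcripts per 1000000, reads scaled to gene length and library), against 20.02 to 22.8 in the others. *COL1A2*, a collagen gene of fibroblasts, was at 67.1 TPM there and at 0.627 or less elsewhere. Replicate 1 differed most from its group in both groups, by chi-square per degree of freedom between pairs of libraries. For control replicate 1 it was 5.38 and 5.30, against 1.58 between control replicates 2 and 3. For DAPT replicate 1 it was 4.12 and 3.93, against 1.81 between DAPT replicates 2 and 3. Of 6 epithelial markers, *KRT5*, *TP63*, *EPCAM*, *CDH1* and *KRT6A* were high in every library, while *KRT14* lay between 0 and 5.43 TPM. The 4 leukocyte markers summed to 19.99 to 27.2 TPM, nearly all of it *CD14*, with *CD3E* at 0 throughout. The 4 endothelial markers summed to 0.466 TPM or less, with *CLDN5* at 0. Library totals lay between 12276313 and 16317672 reads, so that 3 reads, taken as the smallest signal, equalled 0.184 to 0.244 counts per 1000000 (CPM).

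In control cells, the family was led by genes of protein synthesis and export. Levels between genes are compared here only as TPM in the control libraries. *ABCF1*, which binds translation initiation factors, was highest at 117.5 ± 1.25 TPM (SD, n = 3), followed by *ABCC1*, an exporter of glutathione conjugates and drugs, at 61.5 ± 0.936 TPM. *ABCE1*, which splits ribosomes after termination, was at 55.5 ± 1.04 TPM, and the 3 libraries of each of these 3 genes did not overlap with those of the next. *ABCF3* at 39.5 ± 3.61 TPM and the peroxisomal fatty acid transporter *ABCD3* at 38.9 ± 3.30 TPM were not separated by their spread. Below them came *ABCC5*, an exporter of cyclic nucleotides, at 31.6 ± 0.727 TPM. Among the 31 members that passed the filter on low counts, 18 of the 30 pairs of neighbours in this order overlapped between their control libraries.

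By subfamily, F had the highest mean summed level over the control libraries, 164.5 ± 3.25 TPM (SD, n = 3). Subfamily C followed with 161 ± 4.34 TPM, and the control libraries of F and C overlapped. Then came A with 89.6, D with 82.7, B with 70.1, E with 55.5 and G with 10.5 TPM. The highest gene of each remaining subfamily was *ABCA7*, a phospholipid transporter, at 26.6 ± 2.84 TPM, *ABCB10*, a mitochondrial transporter, at 26.4 ± 0.415 TPM, and *ABCG1*, which exports cholesterol, at 7.04 TPM. The canonical drug pump *ABCB1* had only 5, 0 and 1 reads in the control libraries and 0, 0 and 2 with DAPT. *ABCG2*, another drug pump, was at 2.91 TPM in control cells.

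**Figure D1:**
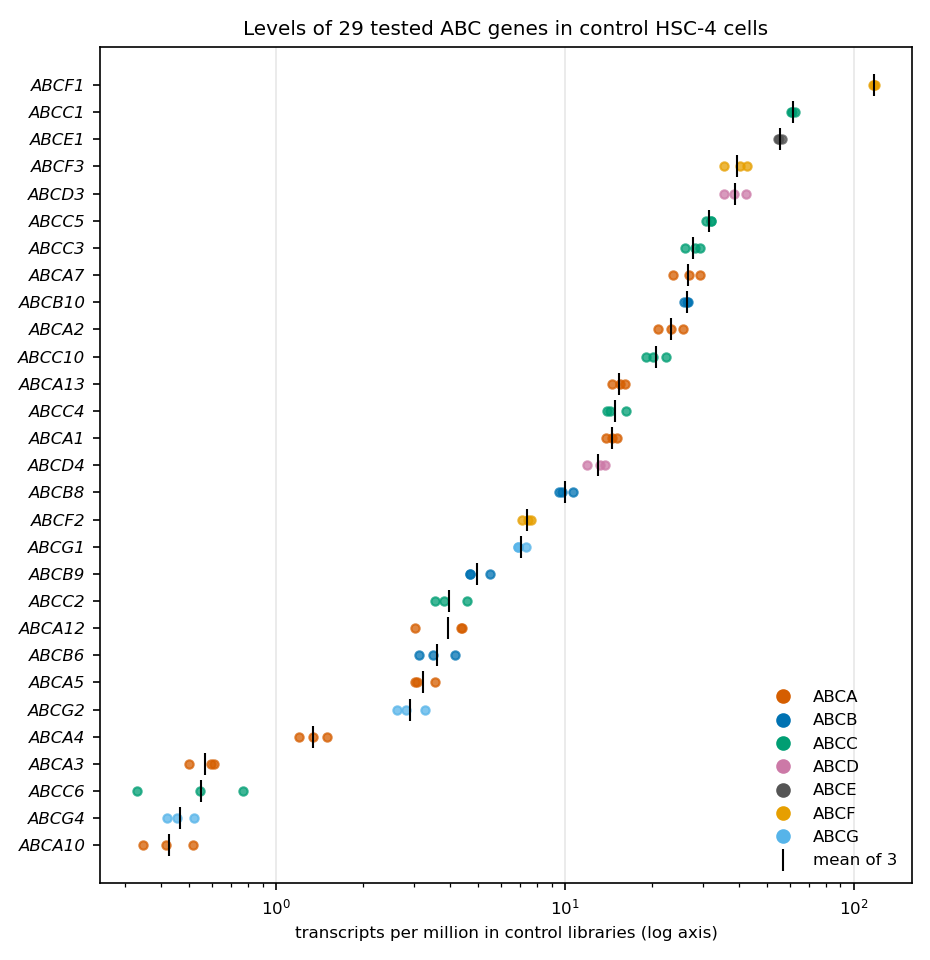
Levels of 29 of the 31 tested ABC genes in the 3 control libraries, in TPM on a log axis. Points are libraries coloured by subfamily and ticks are means, which run from 0.426 TPM for ABCA10 to 117.5 TPM for ABCF1.

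DAPT was compared with control to ask which ABC genes differ after γ-secretase inhibition. Of the 31 tested members, 7 were lower with DAPT (*ABCA1*, *ABCA2*, *ABCA4*, *ABCA13*, *ABCC1*, *ABCC2* and *ABCC5*) and 1 was higher (*ABCA12*) at an adjusted p-value under 0.05. The test was the quasi-likelihood F test of edgeR, Benjamini-Hochberg adjusted over 15001 genes. Across all tested genes 35.2% were called, 18% lower and 17.2% higher (38.3% called, 20% lower and 18.3% higher among protein-coding genes), and the 8 called members were 25.8% of those tested. Members were chosen by symbol alone, but the family itself was selected on the calls of this same comparison between DAPT and control, so these counts describe the members and nothing is read from them about the family. Libraries of the 2 groups did not overlap in 12 of the 31 members, against 46.3% of all tested genes. The median log2 fold change was -0.06 over the members and 0.01 over all tested genes. Reads from all 45 members made up 0.129, 0.129 and 0.132% of control counts and 0.123, 0.123 and 0.126% of DAPT counts.

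The calls lay in subfamilies A and C, with 5 of 9 tested members in A and 3 of 7 in C, and none in B, D, E, F or G, where 2 of the 15 tested, *ABCG1* and *ABCG2*, had an unadjusted p under 0.05 and DESeq2 called 0. Over all genes, DESeq2 called 3974 against 5281 by edgeR, and at least the 35.2% called by edgeR had an unadjusted p under 0.05. Whether the subfamilies differ was not tested. Without control replicate 1, the library with fibroblast markers, 7 members were lower and 2 higher, the added one being *ABCG1*. That fit called 5618 genes in all, against 5281 with all libraries. All 8 called members were called in each of the 6 fits that left out 1 library. For *ABCA4* these calls are not taken as support, because it passed the filter on low counts only through its control libraries. Only 1 called member, *ABCA4*, changed at least 2-fold, as did 2.37% of all tested genes, and 3 changed at least 1.5-fold, as did 7% of all tested genes.

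**Figure D2:**
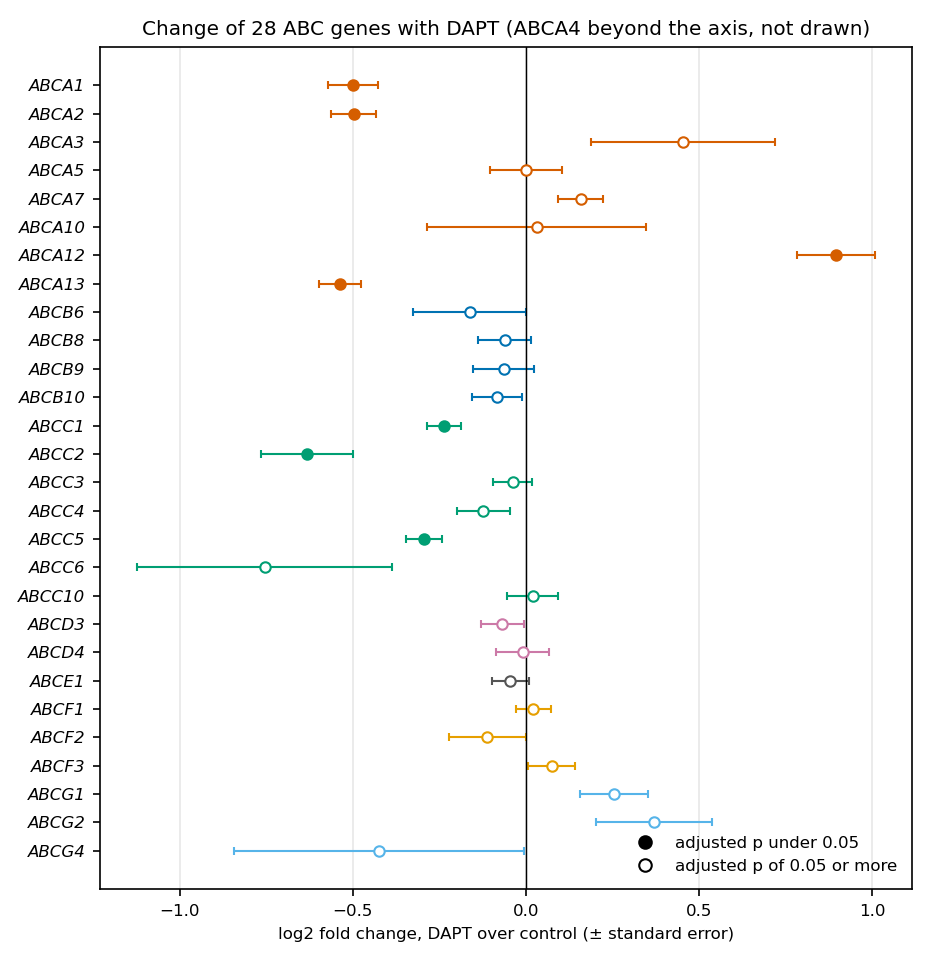
Log2 fold change, DAPT over control, of 28 tested ABC genes with its standard error, coloured by subfamily, where filled points have an adjusted p-value under 0.05. ABCA12 lies to the right at 0.90, the other 6 filled points lie to the left of 0, and ABCA4 is not drawn because its change is beyond the axis.

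*ABCA4*, a flippase that clears retinoids in photoreceptor cells, was nearly lost with DAPT. It had 53, 41 and 44 reads in the control libraries and 0, 1 and 1 reads in the DAPT libraries, or 3.30 ± 0.342 and 0.050 ± 0.0433 CPM after TMM normalisation, which scales libraries for composition (SD, n = 3). All 3 DAPT libraries were below the level of 3 reads and none came near a control library. Scaled for depth, the summed reads were 69.2-fold higher in control, with an exact 95% interval of 18.8 to 577 that covers counting error only. *ABCA4* passed the filter on low counts only through its control libraries, where it is high. The difference passed the test (edgeR adjusted p = 2.1e-09), but for that reason the p-value is not taken as support. *ABCA4* lies at chr1:93992834-94121148 of GRCh38, 297 kb from *ABCD3*, which was measured at 85.4 ± 7.07 CPM in control and 81.5 ± 4.46 CPM with DAPT (log2 fold change -0.07, edgeR adjusted p = 0.421).

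*ABCA12*, the lipid transporter of epidermal lamellar granules, was the only called member that rose. Its CPM values were 12.2, 12.1 and 8.28 in control and 20.8, 20.3 and 20.3 with DAPT. Every DAPT library was above every control library, and control replicate 3 was the lowest of its group. The mean went from 10.9 ± 2.24 to 20.4 ± 0.299 CPM (SD, n = 3), a log2 fold change of 0.90 ± 0.11 (SE, edgeR adjusted p = 3.07e-06). Epithelial markers also differed between the groups. *KRT6A*, a keratin of stratified epithelium, lay at 596 to 642 TPM in control and 234 to 243 TPM with DAPT, *KRT5*, a basal keratin, at 2219 to 2308 and 1155 to 1223 TPM, and *TP63*, a basal cell transcription factor, at 171 to 178 and 124 to 128 TPM. The adhesion genes *EPCAM*, at 419 to 439 and 546 to 562 TPM, and *CDH1*, at 281 to 303 and 370 to 384 TPM, were higher in the DAPT libraries. The part of these differences in the change of *ABCA12* and of the skin barrier genes was not tested.

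*ABCA1*, which loads cholesterol and phospholipid onto apolipoprotein acceptors, fell by 29.3%. It was at 49.0, 45.1 and 46.8 CPM in control and at 34.7, 30.8 and 34.2 CPM with DAPT, with no overlap. The log2 fold change was -0.50 ± 0.07 (SE, edgeR adjusted p = 1.57e-05), and -0.47 without control replicate 1. *ABCA2*, an endolysosomal lipid transporter, was at 69.7, 77.3 and 83.6 CPM in control and 54.0, 53.2 and 55.8 CPM with DAPT. The control libraries of *ABCA2* were spread more widely than the DAPT libraries, and control replicate 1 was the nearest to them. Its log2 fold change was -0.50 ± 0.07 (SE, edgeR adjusted p = 3.81e-06) with all libraries and -0.56 without control replicate 1.

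*ABCA13*, a very large member whose substrates are less well known, was at 84.8, 80.5 and 87.5 CPM in control and 56.9, 55.1 and 62.2 CPM with DAPT. The groups were well apart, with a log2 fold change of -0.54 ± 0.06 (SE, edgeR adjusted p = 3.81e-07). Of the other tested A genes, *ABCA7* was at 56.7, 65.3 and 69.6 CPM in control and 70.3, 70.6 and 72.2 CPM with DAPT. All DAPT values of *ABCA7* were above the control values, but the log2 fold change of 0.16 ± 0.07 missed the threshold (edgeR adjusted p = 0.0665), and it was 0.08 without control replicate 1. *ABCA3*, the surfactant lipid transporter of the lung, was at 1.27 ± 0.134 CPM in control and 1.74 ± 0.268 CPM with DAPT, also without overlap and not called (edgeR adjusted p = 0.195). *ABCA5* and *ABCA10* had log2 fold changes of 0.00 and 0.03. These neighbours on chromosome 17 share 2.42% and 3.78% of their exonic bases with each other, where reads cannot be assigned.

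In subfamily C the 3 called exporters were all lower with DAPT. *ABCC1* was at 133.5, 132.7 and 134.5 CPM in control and 115.0, 109.8 and 115.2 CPM with DAPT. Control libraries were within a narrow band above all DAPT libraries, and the log2 fold change was -0.24 ± 0.05 (SE, edgeR adjusted p = 0.000785). *ABCC5* was at 104.7, 101.2 and 103.5 CPM in control and 83.3, 83.7 and 85.4 CPM with DAPT. Its groups were likewise apart, with a log2 fold change of -0.29 ± 0.05 (SE, edgeR adjusted p = 1.17e-04). *ABCC2*, the apical exporter of bilirubin conjugates in liver, was at 8.59, 8.02 and 10.2 CPM in control and 5.65, 5.78 and 5.76 CPM with DAPT. Its log2 fold change of -0.63 ± 0.13 was the largest decrease among the 3 (SE, edgeR adjusted p = 7.96e-04).

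The other tested C genes were not called. *ABCC3*, an exporter of glucuronides and bile salts, was at 76.9 ± 4.18 CPM in control and 74.7 ± 1.06 CPM with DAPT, and *ABCC4*, an exporter of cyclic nucleotides and prostaglandins, at 36.9 ± 3.12 and 33.9 ± 1.44 CPM. *ABCC10* had a log2 fold change of 0.02, with a 95% interval of -0.14 to 0.17. *ABCC6*, 5.85 kb from *ABCC1* on chromosome 16, was at 1.19 ± 0.467 CPM in control and 0.696 ± 0.179 CPM with DAPT, with overlap (log2 fold change -0.76 ± 0.37, edgeR adjusted p = 0.117). *ABCC6* has near-identical pseudogene copies, so its low counts are uncertain. *ABCF3*, 168 kb from *ABCC5* on chromosome 3, had a log2 fold change of 0.07 (edgeR adjusted p = 0.422).

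**Figure D3:**
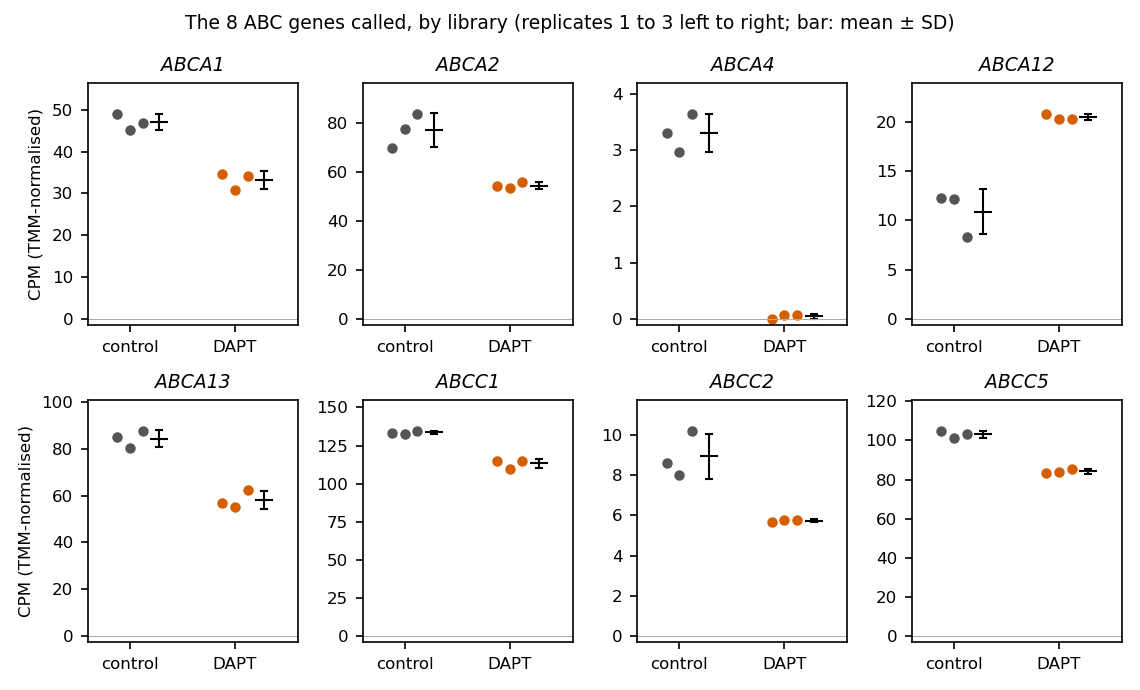
TMM-normalised CPM of the 8 called ABC genes in the 3 control (grey) and 3 DAPT (orange) libraries, on linear axes, with mean ± SD beside the points. The groups are apart in every panel, with DAPT below control except for ABCA12, which goes from 10.9 to 20.4 CPM.

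In subfamily G, *ABCG1* lay nearest to the threshold. It was at 12.9, 12.2 and 12.01 CPM in control and 13.8, 15.9 and 14.8 CPM with DAPT, without overlap. Its log2 fold change of 0.25 ± 0.10 was just outside the threshold (SE, edgeR adjusted p = 0.0502), and without control replicate 1 it was 0.29 and just inside (adjusted p = 0.0418). *ABCG2* was at 4.23, 4.55 and 5.22 CPM in control and 4.74, 6.07 and 7.30 CPM with DAPT, which overlapped (log2 fold change 0.37 ± 0.17, edgeR adjusted p = 0.0897). *ABCG4*, a sterol transporter of the nervous system, was below 1.10 CPM in every library and was not called (log2 fold change -0.43 ± 0.42, edgeR adjusted p = 0.462). At the inner side of the threshold, the called members with the largest adjusted p-values were *ABCC1* and *ABCC2*, with the values given above.

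No tested member of subfamilies B, D, E or F was called. *ABCB10* was at 32.3 ± 0.461 CPM in control and 30.5 ± 0.26 CPM with DAPT. Its libraries did not overlap, yet the log2 fold change of -0.08 was far from the threshold (edgeR adjusted p = 0.389). All 5 tested B genes had values slightly below 0, between -0.16 for *ABCB6* and -0.06 for *ABCB8*. *ABCB6* shares 54.6% of its exonic bases with another gene model on the same strand, so its count may be incomplete. The peroxisomal *ABCD3* had a log2 fold change of -0.07 and the lysosomal *ABCD4* of -0.01. *ABCE1* was at 99.5 ± 2.57 CPM in control and 96.6 ± 4.77 CPM with DAPT, and *ABCF1* at 151.6 ± 1.501 and 153.8 ± 7.64 CPM, with overlap in both genes.

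Of the 23 tested members that were not called, the 17 with a mean of at least 10 CPM had log2 fold changes from -0.12 to 0.25, and their 95% intervals all lay between -0.34 and 0.46. The 6 with lower means ranged from -0.76 to 0.45, with interval bounds from -1.52 for *ABCC6* to 1.00 for *ABCA3*. Of all 23, 3 had an unadjusted p under 0.05, a share that was not compared with that of other uncalled genes.

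The remaining 14 members were not tested because they had at most 6 reads in any library. *ABCB11*, the bile salt export pump, *ABCC8*, a subunit of potassium channels in pancreatic beta cells, and *ABCC12* had 0 reads in all 6 libraries. The others were *ABCA6*, *ABCA8*, *ABCA9*, *ABCB1*, *ABCB4*, *ABCB5*, *ABCC9*, *ABCC11*, *ABCD2*, *ABCG5* and *ABCG8*. *ABCA6*, *ABCA8* and *ABCA9* stand in a row with *ABCA5* and *ABCA10* on chromosome 17. At such counts only a large rise with DAPT could have been called.

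The bases upstream of the 6 called genes with a promoter entry are shown because DAPT acts on Notch, whose DNA-binding partner RBPJ recognises TGGGAA. They come from RefSeq (GRCh38.p14), where 35 of the 45 members had a promoter entry, and run 5′ to 3′ on the gene's strand. *ABCA4* and *ABCC1* had none. Capitals mark TGGGAA, the E-box CACGTG or the ATF4 motif, found on the opposite strand in *ABCA13*. Searches also covered GTGGGAA, the AP-1 site TGANTCA, the ATF4 motif, a direct repeat of AGGTCA and the GC box GGGCGG, which is not capitalised, all on both strands. The positions are chr3:184017940-184018134 for *ABCC5*, chr9:137028923-137029172 for *ABCA2*, chr10:99782390-99782639 for *ABCC2*, chr9:104928156-104928405 for *ABCA1*, chr7:48171208-48171457 for *ABCA13* and chr2:215138627-215138876 for *ABCA12*. All are on the minus strand except *ABCC2* and *ABCA13*, and none of the bases lies in an exon of the counted annotation.
ABCC5: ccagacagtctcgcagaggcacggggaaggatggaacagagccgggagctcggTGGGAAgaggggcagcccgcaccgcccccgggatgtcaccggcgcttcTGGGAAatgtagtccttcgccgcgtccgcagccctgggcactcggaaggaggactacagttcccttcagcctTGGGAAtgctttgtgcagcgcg
ABCA2: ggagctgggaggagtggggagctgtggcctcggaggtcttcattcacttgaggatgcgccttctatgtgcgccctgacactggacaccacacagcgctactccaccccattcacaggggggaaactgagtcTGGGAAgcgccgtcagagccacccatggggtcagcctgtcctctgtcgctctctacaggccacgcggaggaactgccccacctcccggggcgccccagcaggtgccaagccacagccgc
ABCC2: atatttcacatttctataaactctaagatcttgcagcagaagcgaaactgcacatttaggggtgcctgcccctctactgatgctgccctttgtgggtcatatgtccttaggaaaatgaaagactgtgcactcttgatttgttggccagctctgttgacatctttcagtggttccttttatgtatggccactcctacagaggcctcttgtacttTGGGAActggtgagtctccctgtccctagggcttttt
ABCA1: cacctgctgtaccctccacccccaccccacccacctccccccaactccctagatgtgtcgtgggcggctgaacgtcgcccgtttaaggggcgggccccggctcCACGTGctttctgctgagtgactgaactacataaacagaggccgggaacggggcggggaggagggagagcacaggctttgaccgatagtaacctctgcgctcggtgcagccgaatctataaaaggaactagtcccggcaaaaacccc
ABCA13: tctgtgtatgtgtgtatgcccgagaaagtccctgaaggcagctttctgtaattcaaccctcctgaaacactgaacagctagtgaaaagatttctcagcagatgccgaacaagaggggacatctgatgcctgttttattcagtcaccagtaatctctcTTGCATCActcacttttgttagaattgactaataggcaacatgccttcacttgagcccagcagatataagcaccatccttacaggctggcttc
ABCA12: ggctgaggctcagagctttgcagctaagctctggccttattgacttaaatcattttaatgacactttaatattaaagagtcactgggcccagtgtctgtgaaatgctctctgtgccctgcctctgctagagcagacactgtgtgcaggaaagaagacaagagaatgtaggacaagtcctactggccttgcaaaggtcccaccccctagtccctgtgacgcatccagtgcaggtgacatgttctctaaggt

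TGGGAA was found 3 times upstream of *ABCC5*, starting 197, 149 and 77 bases before the RefSeq start, and once each upstream of *ABCA2* and *ABCC2*. In windows of 300 bases, from 250 before to 50 after the start, it was present in 8 of 35 members (22.9%) and in 24.3% of 27305 promoters. The longer GTGGGAA was found in *ABCC5* only, against 6.28% of all promoters. The E-box of *ABCA1* was shared with 3 other members, 4 of 35, and with 7.43% of all promoters. The window of *ABCA12* held none of the capitalised motifs. The AP-1 site was found in 2 members and 7.76% of promoters, the ATF4 motif in 3 members, among them the called *ABCA13*, and 3.67% of promoters, the GC box in 18 members and 44.6% of promoters, and the direct repeat in no member and 0.02% of promoters. The GC content of the sequences shown was 65.6% for *ABCC5*, 65.2% for *ABCA2*, 61.6% for *ABCA1*, 48.8% for *ABCA12*, 45.6% for *ABCC2* and 44.8% for *ABCA13*. These matches are letters in a window and were not measured as binding.

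The family has relatives under other names. *TAP1*, an ATP-binding cassette protein that carries peptides into the endoplasmic reticulum for antigen presentation, rose from 98.3 ± 2.44 to 118.8 ± 3.43 CPM (log2 fold change 0.27 ± 0.05, edgeR adjusted p = 2.77e-04). Its partner *TAP2* had a log2 fold change of 0.08 (edgeR adjusted p = 0.328). *CFTR*, the chloride channel of this family, was not tested, with 7, 1 and 4 reads in control and 0, 2 and 0 with DAPT.

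Lists of genes that work with these transporters were read beside the 18% lower and 17.2% higher calls over all tested genes. Among protein-coding genes the shares were 20% and 18.3%. The lists were chosen with earlier results of these data known, so their counts are descriptions only. Of 16 tested regulators of ABC genes, 3 fell and none rose: *SREBF1* (log2 fold change -0.64) and *SREBF2* (-0.40), which switch on lipid and cholesterol synthesis, and the RNA and DNA binding *YBX1* (-0.29). The liver X receptors and their partners, which switch on *ABCA1* and *ABCG1*, were among the genes not called. Apart from them, 3 other regulators were higher at an unadjusted p under 0.05 in edgeR. Over all tested genes, at least the 17.2% called higher pass that limit, because adjustment only raises p-values. By DESeq2 after adjustment, 0 regulators were higher. Of 13 sterol and phospholipid efflux partners of *ABCA1*, 6 fell and 4 rose, with a median of -0.15. Among them the lipoprotein receptor *SCARB1* (-0.57) and the phospholipid transfer gene *PLTP* (-0.59) fell, while the apolipoprotein *CLU* (0.42) rose.

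Of 12 tested skin barrier lipid genes, partners of *ABCA12*, 2 rose and 2 fell, with a median of 0.09. The rising genes included *SMPD1* (0.68), which releases ceramide, and the falling genes were the ceramide synthases *CERS3* (-0.41) and *CERS4* (-0.20). Retinoid handling genes, grouped here with *ABCA4*, had 6 of 13 lower and none higher, with a median of -0.31. None was higher by edgeR at an unadjusted p under 0.05 (0 genes) or by DESeq2 (0 genes). Among these were the retinol importer *STRA6* (-0.53) and the retinaldehyde dehydrogenases *ALDH1A3* (-0.28) and *ALDH1A1* (-1.50).

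Glutathione conjugation genes, grouped here with the ABCC exporters, had 7 of 17 lower and 1 higher, with a median of -0.20. The transferases *GSTO1* (-0.62) and *GSTM3* (-0.53), the reductase *GSR* (-0.22) and the glutathione hydrolase *GGT1* (-1.03) were lower. Solute carriers for drug uptake had 5 of 16 lower and 1 higher, with a median of -0.05. The nucleoside carrier *SLC29A1* (-0.81), the folate carrier *SLC19A1* (-0.84) and *SLCO3A1* (-0.42) fell, and the proton-coupled folate carrier *SLC46A1* (0.30) rose.

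Peroxisomal fatty acid oxidation genes had 2 of 16 lower and 2 higher, with *CROT* (0.27) and *PEX14* (0.24) up and *HSD17B4* (-0.16) and *PEX3* (-0.24) down. Mitochondrial iron-sulfur and haem genes had 1 of 17 lower and 2 higher, *SLC25A38* (0.23) and *ISCU* (0.18). Ribosome recycling and initiation partners had 1 of 15 lower, *EIF5B* (-0.14), and 1 higher, *EIF2S2* (0.16). The medians were -0.04, -0.05 and -0.04. The only tested potassium channel partner, *KCNJ11*, was not called. Over all genes, edgeR called 5281 with all libraries and 5618 without control replicate 1, and DESeq2 called 3974. The list counts below are read beside these totals. Without control replicate 1, the lower and higher counts were 3 and 1 for the regulators, 2 and 3 for skin barrier lipid genes, 2 and 1 for peroxisomal, 3 and 1 for mitochondrial, 0 and 2 for ribosome and 6 and 1 for solute carrier genes, and the counts of the sterol, retinoid and glutathione lists were as with all libraries. By DESeq2, the lower and higher counts were 5 and 3 for sterol, 1 and 2 for skin barrier lipid, 5 and 0 for glutathione, 1 and 1 for peroxisomal, 1 and 0 for mitochondrial, 0 and 1 for ribosome and 5 and 1 for solute carrier genes.

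**Figure D4:**
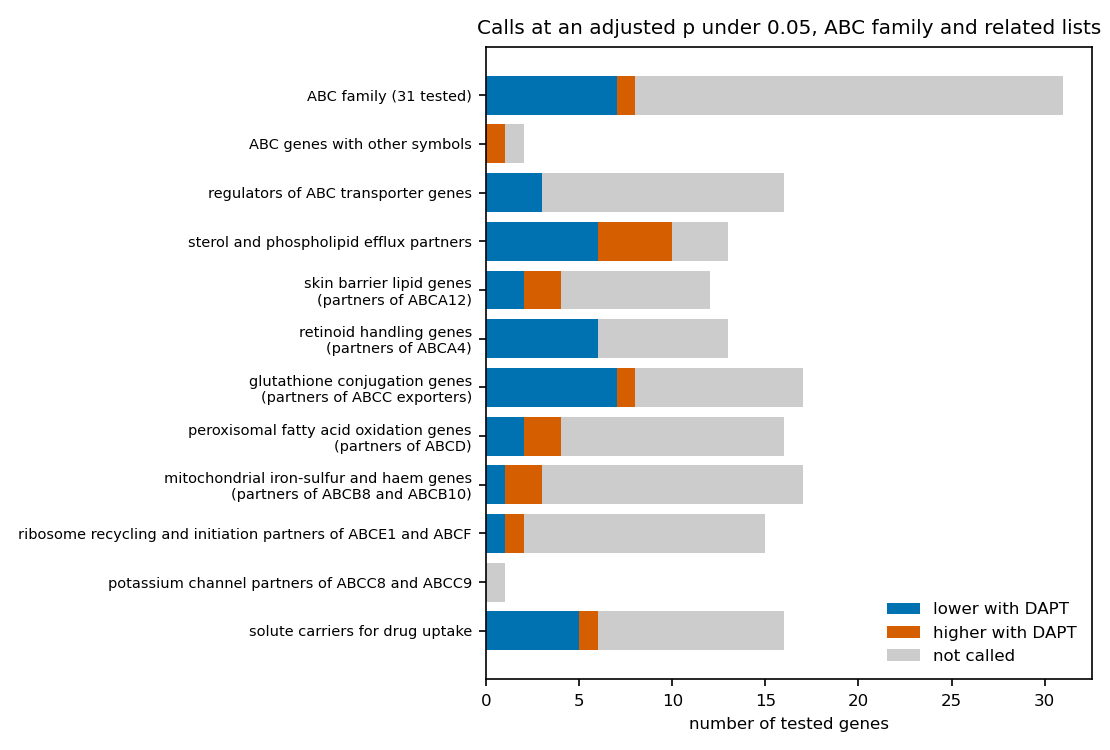
Number of tested genes that were lower (blue), higher (orange) or not called (grey) with DAPT in the ABC family and 11 related lists, as stacked bars from 0. The ABC family has 7 lower and 1 higher genes, the glutathione list 7 and 1 and the retinoid list 6 and 0.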

How the data were processed

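Single-end reads were trimmed and aligned to GRCh38 by the authors with HISAT2, and assigned in the sense orientation to Ensembl release 96 genes with featureCounts 1.6.3, per the file headers. The deposited values are raw read counts per gene and library, without normalization. The submitters' processing notes also name HTSeq and DESeq2. Symbols came from GENCODE release 44, which matched 58472 of 58884 identifiers. Over 113 gene pairs on opposite strands, the median antisense density was 1.84% of the sense density. By default, featureCounts leaves out reads that map to several places or overlap several genes.

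Counts were compared with edgeR 4.0.16 in R 4.3.3, using filterByExpr (minimum count 10), TMM scaling, robust quasi-likelihood dispersions and Benjamini-Hochberg adjustment over all 15001 genes that passed. CPM are TMM-normalised, and TPM used exonic length. Standard errors were derived from the test statistic. Library totals of 12276313 to 16317672 limit precision for genes with few reads. Members and lists were chosen with earlier results of these data known. Every called member was named, as were the highest of each subfamily and genomic neighbours of called members, with at most 4 genes per list. Some genes are not reported here, but they are included in the counts. The remaining tested members were named to account for the family, after their values were seen. Alternatives covered DESeq2 1.42.0, limma-voom (limma 3.58.1), other normalizations, filters and thresholds, each library left out and a replicate block. Procedures were tested on simulated data.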

Additional observations from a re-analysis of the deposited data

How the results depend on the processing

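Across DESeq2, the likelihood ratio test, limma-voom, 3 other scalings and 2 other filters on low counts, the called members kept their directions, apart from *ABCA4*, which was not tested when 10 counts were required in every library. Scaling by library size alone gave 3 higher members and a median of -0.018, with the median of all genes at 0.06. A fit that was not robust gave 2 higher members. Leaving out 1 library gave 4174 to 5618 called genes, 8 to 10 called members, 7 lower, 1 to 3 higher and medians from -0.09 to -0.04. The 3 higher members came without DAPT replicate 1, and 2 came without control replicate 1 or control replicate 3. Stricter limits lowered the gene counts by construction: an adjusted p under 0.01 left 3338 genes and all 8 members, a 1.5-fold limit left 1050 genes and 3 members (2 lower), and a 2-fold limit left 356 genes and 1 member (1 lower, 0 higher). With the replicate number as a block, 5295 genes and 8 members were called, with a median of -0.06. Same-numbered libraries did not deviate together (correlations 0.02, 0.04 and -0.01 over 14199 genes). Unlike-numbered libraries had correlations from -0.05 to 0.02. These values cannot show whether cultures or libraries were handled in pairs. Of the 10 highest members by TPM, 8 were also among the 10 highest by CPM. Where no cause is named, the cause was not tested. Intervals were widest for members under 10 CPM.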
